A study of Bos taurus with 8 samples.

Results

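The miR-25, miR-32 and miR-92 family is a group of miRNAs named for a shared seed, the short stretch near the 5′ end of the mature miRNA that pairs with target transcripts. Its members were taken by name from the deposited count tables of bovine rumen fluid: bta-miR-25, bta-miR-32, bta-miR-92a, bta-miR-92b and bta-miR-363. These 5 members stand among 565 listed mature miRNA entries, of which 399 are bovine and the others human. All 5 reached 10 reads in at least 1 library, as did 377 entries in all and 268 of the bovine ones.

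Rumen fluid was taken from 4 non-lactating Holstein cows with a ruminal cannula and a mean age of 10 years, and all samples of both groups came from these cows. The forage group was sampled on day 7 of a diet with 0% concentrate, and the HG (high-grain) group on day 1 with 65% concentrate, which the cows reached by stepwise increases over about a week, each time 4 h after the morning feeding. Each sample yielded a single small RNA library (8 in all, 4 on each diet), and the study asked whether the diet change alters miRNAs in the fluid. The labels number the libraries of a diet, and equal numbers were read as the same cow on the word of the labels alone. No other tissue of these cows was analysed here, the HG group was sampled only on the first day at full concentrate, and the order of the diets was the same in every cow, so diet and sampling time cannot be told apart.

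Members of a seed family can repress overlapping sets of transcripts, because target recognition depends mostly on the seed. In mammals the family is spread over several genes. miR-25 is made from a cluster with miR-93 and miR-106b inside a gene for a DNA replication factor. miR-92a comes from the miR-17-92 cluster, which is known for promoting proliferation, and from the related miR-106a-363 cluster, which also holds miR-363. miR-32 and miR-92b are made from genes outside these clusters, and miR-92a and miR-25 are known to be plentiful in blood cells.

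The libraries held 1407364 to 4972762 reads, of which 300116 to 522804 were miRNA reads, or 6.67% to 29.3% of each library. Levels are given here as reads per 1000000 miRNA reads (RPM), with each read counted in full at every entry it maps to. With this depth a count of 0 allows at most 3 reads, or 5.74 to 9.996 RPM. Intervals for single libraries are 95% Wilson intervals and cover counting error only, since the reads carry no molecular identifiers. Over 283 distinct read profiles, every pair of libraries of 1 diet differed (largest p = 6.83e-07, chi-square test). Some of these profiles share reads, such as bta-miR-103 (36473 reads) and hsa-miR-103a-3p (36470), so these p-values can be too small. Over only the 78 bovine entries that share no reads and have at least 5 reads in every library, 4 of the 12 pairs did not (p of 0.0789 to 0.495 in the same test), among them the 3 pairs of forage replicates 1, 3 and 4. The counts of entries that share no reads thus do not tell forage replicates 1, 3 and 4 apart. As these differed in their share of miRNA reads (29.3%, 17.4% and 6.67%), each library was kept as a replicate. HG replicate 2 stood apart from the other libraries, and the HG means of the members are given with and without it. As the fluid is a bulk sample, fewer cells of a type and less RNA per cell cannot be told apart.

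miR-92a and miR-25 carried nearly the whole family. Of 143683 family reads in the 8 libraries, 140250 belonged to these members, or 97.6%, and the share lay between 97.0% and 97.8% in the single libraries. The family as a whole made up 4.55% ± 0.032 (SD, n = 4) of miRNA reads on the forage diet. On the HG diet it made up 4.34% ± 0.338 (SD, n = 4), with 4.59%, 3.85%, 4.54% and 4.39% in replicates 1 to 4. Without HG replicate 2 the HG share was 4.51%. With reads divided among the places they map to, the bovine members held 1.76% ± 0.026 of miRNA reads on the forage and 1.68% ± 0.133 on the HG diet (SD, n = 4). The parts of their reads credited to other places are left out of this value, while the total is undivided. It is therefore not comparable with the share counted in full. The order of levels was miR-92a, miR-25, miR-32, miR-92b and miR-363 in each of the 8 libraries when reads were counted in full.

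**Figure D1:**
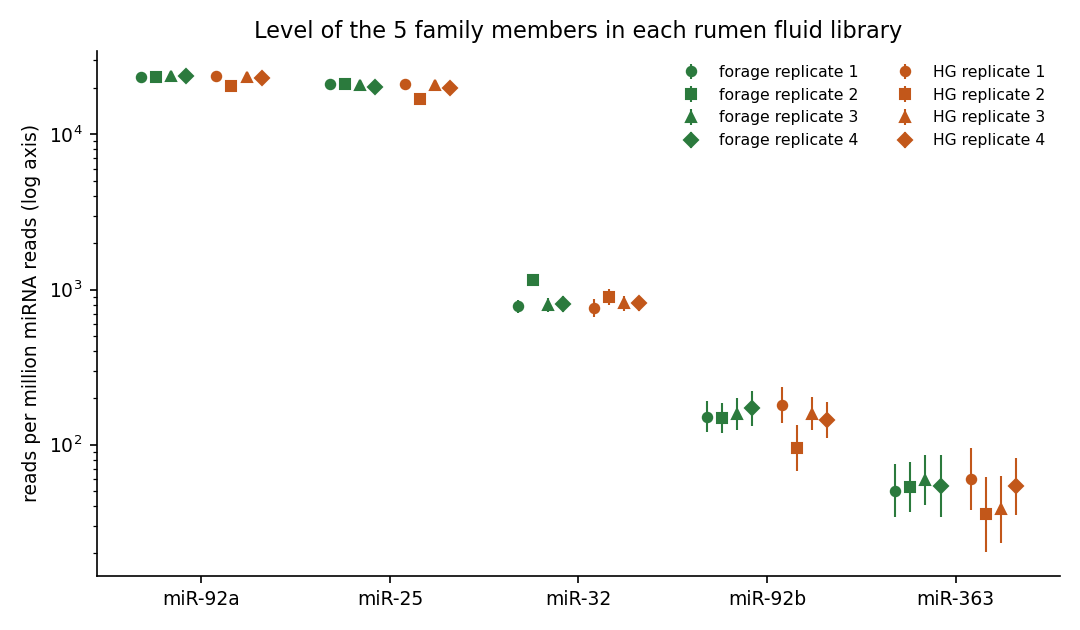
Level of each family member in each library, in RPM on a log axis, with forage libraries in green and HG libraries in orange. Bars are 95% Wilson intervals, hidden by the symbol where short. miR-92a and miR-25 lie close together at the top, miR-32, miR-92b and miR-363 follow on separate levels, and the diets are intermixed. The high green square of miR-32 is forage replicate 2, at 1155 RPM.

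With reads counted in full, the most abundant member was bta-miR-92a, the last miRNA of the miR-17-92 cluster, whereas with divided reads it was miR-25. Its mature form of 22 nucleotides is placed by the files at chr12:66227302-66227323 on the plus strand (UMD3.1). RefSeq has a pair of genes for it, MIR92A-1 between MIR19B and GPC5 on chromosome 12 and MIR92A-2 between MIR363 and MIR19B-2 on the X chromosome (names from ARS-UCD2.0), and the counts do not tell them apart. With 74618 reads it ranked 11 among the bovine entries. The forage libraries held 23442, 23349, 23773 and 23721 RPM (replicates 1 to 4; mean 23571 ± 207, SD, n = 4). The HG libraries held 23721, 20589, 23487 and 22919 RPM (mean 22679 ± 1433, SD, n = 4). The diets overlapped, and only HG replicate 2 lay clearly below the others. Without it the HG mean was 23376 ± 412 (SD, n = 3). The forage libraries varied by a coefficient of variation of 0.88%, beside 0.984% from counting alone.

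bta-miR-25 had 65632 reads counted in full and rank 13, and it was above miR-92a with divided reads. The files place its 22 nucleotides at chr25:36892500-36892521 on the plus strand (UMD3.1), and RefSeq places MIR25 inside MCM7, whose product is part of the helicase that opens DNA for replication. The forage libraries held 21040, 21061, 20883 and 20288 RPM (mean 20818 ± 362, SD, n = 4). The HG libraries held 21195, 16918, 20889 and 19985 RPM (mean 19747 ± 1955, SD, n = 4). Again HG replicate 2 was the lowest of the 8, and the other HG libraries lay among or close to the forage ones. Without it the HG mean was 20690 ± 629 (SD, n = 3).

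Whether miR-92a or miR-25 led depended on how reads that map to several places were counted. Counted in full, miR-92a was 1.11 to 1.22 times miR-25, and it was higher in 8 of 8 libraries. The deposited tables also give a count in which each read is divided among the places it maps to. On that scale miR-25 was 1.58 to 1.74 times miR-92a and was higher in 8 of 8 libraries. The full count of miR-25 was exactly 2 times its divided count in 8 of 8 libraries, and the full count of miR-92a was 3.86 times its divided count over all libraries. hsa-miR-25-3p and hsa-miR-92a-3p, the human entries of these miRNAs, had the same reads as the bovine entries in every library. For miR-32, miR-92b and miR-363, full and divided counts were equal in 8 of 8 libraries, and hsa-miR-32-5p, hsa-miR-92b-3p and hsa-miR-363-3p were not among the listed entries. The levels of miR-32, miR-92b and miR-363 do not depend on this choice. The order of miR-92a and miR-25 turned because the divisor was larger for miR-92a, which has a pair of genes. That divisor is set by the number of places a read maps to, so the divided order is not a separate measure of their levels.

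**Figure D2:**
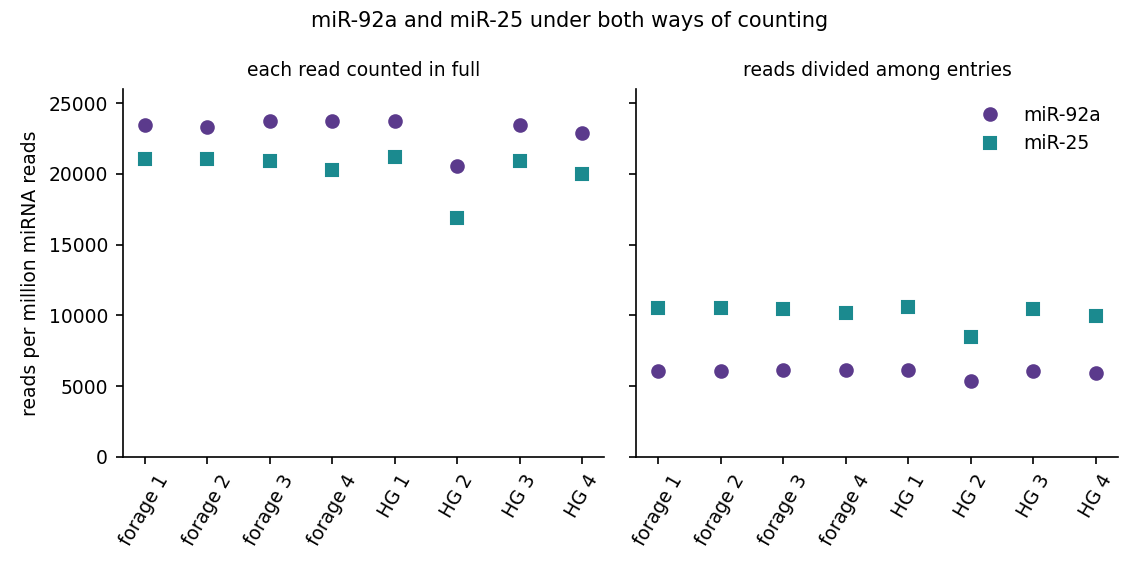
RPM of miR-92a (circles) and miR-25 (squares) in each library, with each read counted in full (left) and with reads divided among the places they map to (right). miR-92a stands above miR-25 in 8 of 8 libraries on the left and below it in 8 of 8 on the right.

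bta-miR-32 was the member of intermediate level, with 2783 reads and rank 98. Its 23 nucleotides lie at chr8:100305165-100305187 on the minus strand (UMD3.1), and RefSeq places MIR32 inside TMEM245, a gene for a membrane protein. The forage libraries held 779, 1155, 794 and 808 RPM (mean 884 ± 181, SD, n = 4). The HG libraries held 760, 895, 816 and 814 RPM (mean 821 ± 55.9, SD, n = 4). Forage replicate 2 was 1.43 times the mean of the other 7 libraries, which ranged from 760 to 895 RPM, and its interval of 1067 to 1251 RPM lay above the interval of each of them. HG replicate 2, taken as the same cow by its number, had the next highest level, with an interval of 800 to 1002 RPM that overlapped those of the other 6 libraries. Without forage replicate 2 the forage mean was 793 ± 14.2 (SD, n = 3), and without HG replicate 2 the HG mean was 797 ± 32.1 (SD, n = 3).

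The spread of miR-32 among forage libraries was wider than counting gives, with a coefficient of variation of 20.5% beside 5.18% from counting. Among the 125 bovine entries with at least 1000 reads, none stood higher in forage replicate 2 over the mean of the other forage libraries than miR-32 (log2 ratio 0.54). The next were miR-375 (log2 ratio 0.29) and miR-2285bf (0.25), and the median entry was at -0.01. These entries were looked up after the level of miR-32 had been seen, and this ranking is a description with no test.

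bta-miR-92b was rarer, with 486 reads and rank 143. Its 22 nucleotides lie at chr3:15480785-15480806 on the minus strand (UMD3.1), and MIR92B stands between THBS3 and MUC1 in RefSeq. The forage libraries held 152, 149, 158 and 172 RPM (mean 158 ± 10.1, SD, n = 4), from 57 to 78 reads each. The HG libraries held 180, 95.2, 159 and 144 RPM (mean 145 ± 36.0, SD, n = 4), from 32 to 62 reads each. HG replicate 2 was the lowest, at 32 reads with an interval of 67.4 to 134 RPM, and the diets overlapped. Without it the HG mean was 161 ± 17.9 (SD, n = 3), which is above the forage mean, so the order of the means turned. Although the names are alike, miR-92a was 132 to 216 times miR-92b with reads counted in full and 34.1 to 56.1 times with divided reads, with the highest ratio of both scales in HG replicate 2.

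bta-miR-363 was the rarest member, with 164 reads and rank 200. Its 21 nucleotides lie at chrX:17917752-17917772 on the minus strand (UMD3.1), and MIR363 stands between GPC3 and MIR92A-2 in RefSeq. The forage libraries held 50.6, 53.6, 59.2 and 54.2 RPM (mean 54.4 ± 3.57, SD, n = 4). The HG libraries held 59.98, 35.7, 38.4 and 54.1 RPM (mean 47.0 ± 11.8, SD, n = 4). Each value rests on only 12 to 28 reads, and the coefficient of variation of the HG libraries, 25.2%, was the same as that from counting alone. That of the forage libraries, 6.57%, was below the 20.5% from counting, so the forage SD gives no measure of the spread between cows. HG replicates 2 and 3 were lowest, but their intervals of 20.4 to 62.4 and 23.3 to 63.3 RPM hold the forage mean. Without HG replicate 2 the HG mean was 50.8 ± 11.2 (SD, n = 3).

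The neighbours in the order of levels can be told apart by their ranges for the most part. Over the 8 libraries miR-25 and miR-92a overlapped in range with reads counted in full. This overlap came from HG replicate 2: in the other 7 libraries miR-92a was at 22919 RPM or more and miR-25 at 21195 RPM or less. miR-25 was 18.2 to 27.9 times miR-32 with reads counted in full and 9.12 to 13.9 times with divided reads. miR-32 was 4.22 to 9.41 times miR-92b, and miR-92b was 2.67 to 4.13 times miR-363. The ranges of miR-32, miR-92b and miR-363 did not overlap one another, and these values are levels of different miRNAs of 21 to 23 nucleotides.

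The members also differed in how many distinct read sequences made up their counts, a measure of end and base variants together with sequencing errors. miR-92a had 73 to 111 distinct sequences per library and miR-25 had 63 to 95. miR-32 had only 5 to 10 and miR-363 only 4 to 7. miR-92b had 5 to 14, at fewer reads than miR-32. There were 35.1 to 60.4 reads behind each distinct sequence of miR-32, beside 4.91 to 7.5 for miR-92b. The 2 values above 60 for miR-32 were those of forage replicate 2 (60.4) and HG replicate 2 (60.2), and the other 6 libraries reached at most 48.1. Deeper counts give more distinct sequences, so these numbers were not tested between members.

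No member passed the test for a difference between the diets. In edgeR's quasi-likelihood test with cow and diet in the model and Benjamini-Hochberg adjustment over 377 entries, 0 of 5 members passed an adjusted p of 0.05. The background was also 0% of the 377 entries, with 9 at an unadjusted p under 0.05 and a smallest adjusted p of 0.788. DESeq2 likewise called 0 entries. The diets did not overlap for 0 of 5 members, beside 3.98% of the 377 entries.

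The estimates for the abundant members were close to 0 with small errors. The log2 change from forage to HG was -0.01 (SE 0.03, adjusted p = 0.924) for miR-92a, which was lower on HG in 3 of 4 cows. It was -0.03 (SE 0.04, adjusted p = 0.830) for miR-25, lower in 2 of 4 cows. For miR-32 it was -0.04 (SE 0.07, adjusted p = 0.880), lower in 2 of 4 cows. The rare members had wide errors, with -0.10 (SE 0.16, adjusted p = 0.859) for miR-92b and -0.19 (SE 0.26, adjusted p = 0.830) for miR-363. All 5 estimates were below 0, as were 167 of the 377 entries, and the median over all entries was 0.03. The sign rested on 1 cow for miR-32 and miR-92b: without replicate 2 their estimates were 0.0072 and 0.0077. That of miR-25 was -0.0027 without replicate 2 and -0.06 without replicate 1, and that of miR-92a ranged from -0.03 without replicate 1 to -0.0055 without replicate 3. That of miR-363 ranged from -0.34 without replicate 1 to -0.04 without replicate 3.

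**Figure D3:**
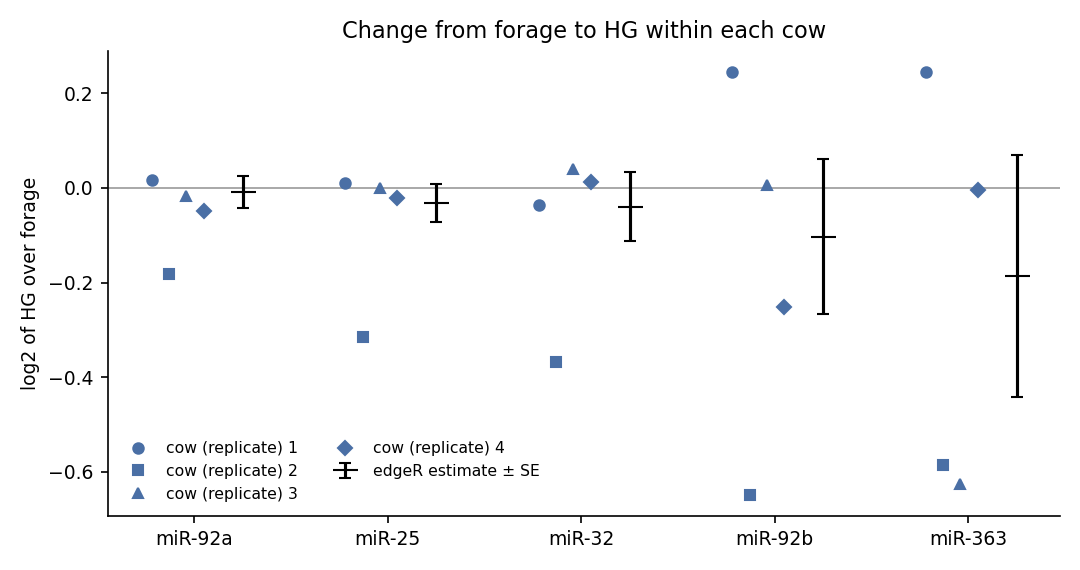
Log2 ratio of HG over forage RPM within each cow, for the 5 members. Symbols are the 4 cows by replicate number, and the black bars are the edgeR estimate with its SE. Replicate 2 (square) is the lowest or next to lowest for every member, and the other cows lie on both sides of 0 or close to it for miR-92a, miR-25 and miR-32.

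Within cows, the ratios of HG over forage RPM for miR-25 were 1.007, 0.803, 1.0003 and 0.985 in replicates 1 to 4. For miR-92a they were 1.01, 0.882, 0.988 and 0.966. For miR-32 they were 0.975, 0.775, 1.03 and 1.01. In all 3, replicates 1, 3 and 4 stayed between 0.966 and 1.03, and replicate 2 lay below. The ratios of miR-92b were 1.19, 0.638, 1.01 and 0.840, and those of miR-363 were 1.19, 0.667, 0.648 and 0.998. These wider ratios come with 12 to 78 reads per library.

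Differences between cows were tested in the same model. Again 0 of 5 members and 0% of the 377 entries passed, with a smallest adjusted p of 0.901. At an unadjusted p under 0.05 stood 2.39% of the entries, or 9, and among the members only miR-32 (unadjusted p = 0.00858, adjusted p = 0.901, edgeR). This was the lowest p of the 377 entries in the cow test. It rested on 1 cow: without both libraries of replicate 2 the unadjusted p of miR-32 was 0.581 in the same edgeR test. With all cows, the remaining members had unadjusted p-values of 0.552 to 0.982. Without replicate 2, that of miR-25 went from 0.700 to 0.0264 (adjusted p = 0.560, edgeR), with adjusted p-values of 0.560 to 0.9999 over its 10 alternatives.

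HG replicate 2 was low for 4 of the 5 members. Against the mean of the other 7 libraries its log2 ratio of RPM was -0.30 for miR-25, -0.19 for miR-92a, -0.74 for miR-92b and -0.57 for miR-363, but 0.08 for miR-32. Entries moved both ways in this library: 236 of the 353 with reads in all 8 libraries were lower than their mean in the others, and the median ratio was -0.22. After TMM scaling the median entry was at -0.01 and the members were at -0.09 (miR-25), 0.02 (miR-92a), -0.53 (miR-92b), -0.36 (miR-363) and 0.29 (miR-32). TMM moves all entries of a library by nearly the same amount, and miR-92a, close to the median entry on both scales, has no direction apart from the scaling. Of the 353 entries, 60 had a lower RPM ratio than miR-92b, 85 than miR-363, 157 than miR-25, 186 than miR-92a and 251 than miR-32.

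Markers of other cell types moved in the same library. The summed RPM of the 3 erythrocyte miRNAs was 149756 in HG replicate 2, beside 198457 to 206066 in the other libraries. All 3 were lower there than the mean of the other 7 libraries. The sum over the 6 leukocyte miRNAs was 18655, beside 22587 to 23323, with 4 lower and 2 higher. In contrast, the 7 listed of 8 epithelial miRNAs summed to 31200 RPM, beside 22054 to 22804, with 6 higher and 1 lower, and miR-203 was not among the listed entries. The 8 miRNAs of smooth muscle and stroma summed to 93966 RPM, beside 68520 to 73788, with 6 higher and 2 lower. miR-92b and miR-363 were thus low in RPM in the library in which erythrocyte and leukocyte markers were low. miR-25 and miR-92a were lower there too, but lay near the median entry of that library. The part of these cells in the members' levels was not tested. In forage replicate 2, where miR-32 was high, the 4 sums were 206066 (erythrocyte), 23131 (leukocyte), 22355 (epithelium) and 71402 RPM (smooth muscle and stroma).

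**Figure D4:**
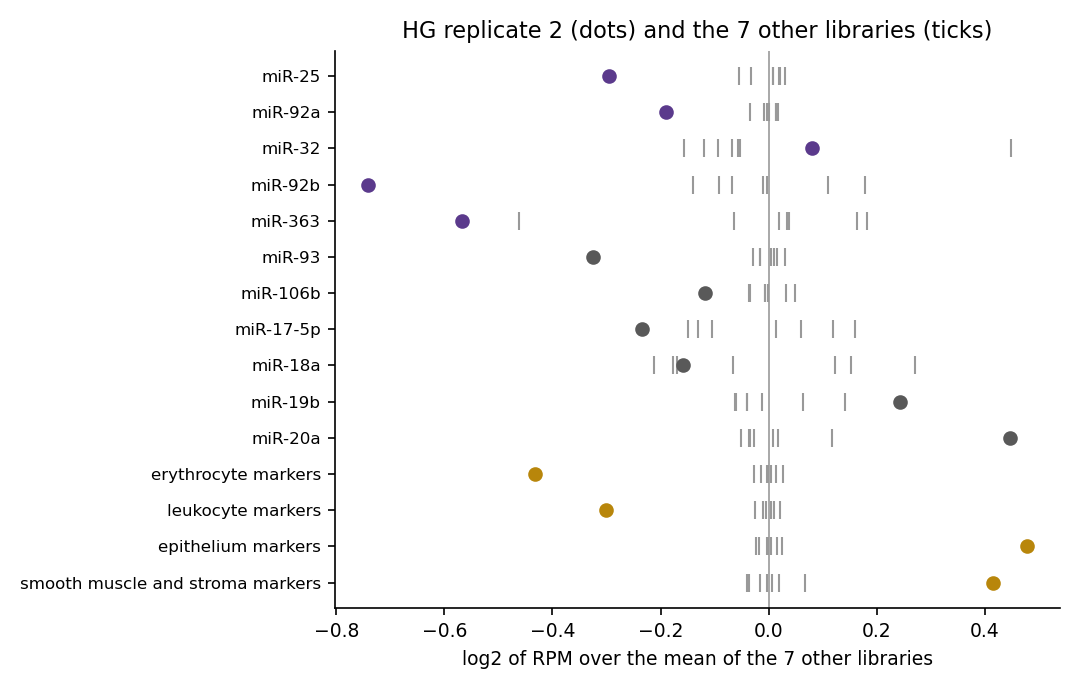
Log2 ratio of RPM in HG replicate 2 (dots) over the mean of the 7 other libraries, which are drawn as ticks. Family members are purple, cluster mates with at least 1000 reads grey and summed marker lists yellow. The dots of all members but miR-32 lie below every tick of their line, while those of miR-20a, miR-19b, epithelium and smooth muscle and stroma lie above.

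The cluster mates are miRNAs cut from the same primary transcripts as the members. All 11 were listed, 10 reached 10 reads in a library, and 0 of 10 passed the diet test in edgeR, as for the background of 0%. Their median log2 change was -0.02, beside 0.03 over all entries. In the miR-25 cluster, which spans 465 bases from miR-106b to miR-25 on chromosome 25, levels counted in full were higher towards miR-25. miR-106b had 3947 ± 109 RPM on forage and 3904 ± 174 on HG, and miR-93 had 8529 ± 162 and 8097 ± 863 (SD, n = 4). miR-25 was 2.35 to 2.50 times miR-93, with full and with divided reads alike, and HG replicate 2 lay inside this range at 2.49. With reads counted in full it was 5.06 to 5.43 times miR-106b in 7 libraries and 4.63 times in HG replicate 2, and with divided reads 2.53 to 2.72 and 2.32 times.

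In the miR-17-92 cluster, miR-92a stood far above its mates. The cluster spans 757 bases on chromosome 12, and its mates with at least 1000 reads were miR-17-5p, miR-19b, miR-20a and miR-18a. On forage they had 1061 ± 107, 1012 ± 38.9, 979 ± 20.6 and 357 ± 44.3 RPM (SD, n = 4). miR-92a was 20.004 to 24.8 times miR-17-5p and 59.2 to 82.8 times miR-18a with reads counted in full, and 10.5 to 13.1 and 31.2 to 43.4 times with divided reads. Counted in full, it was 21.97 to 24.8 times miR-20a in 7 libraries but 15.2 times in HG replicate 2, where miR-20a was high (1357 RPM). With divided reads the ratios were 11.4 to 12.8 and 7.87. miR-19b had a like pattern, with a ratio of 20.9 to 24.0 in 7 libraries and 17.0 in HG replicate 2 counted in full, and 21.4 to 24.7 and 17.6 with divided reads. The diet estimates of these mates went in both directions, and none passed the test. miR-20a was higher on HG in 4 of 4 cows (log2 change 0.21, SE 0.12, adjusted p = 0.788, edgeR), with an estimate of 0.07 without replicate 2. miR-18a was lower on HG in 4 of 4 cows (log2 change -0.20, SE 0.11, adjusted p = 0.788, edgeR), with an estimate of -0.23 without replicate 2.

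**Figure D5:**
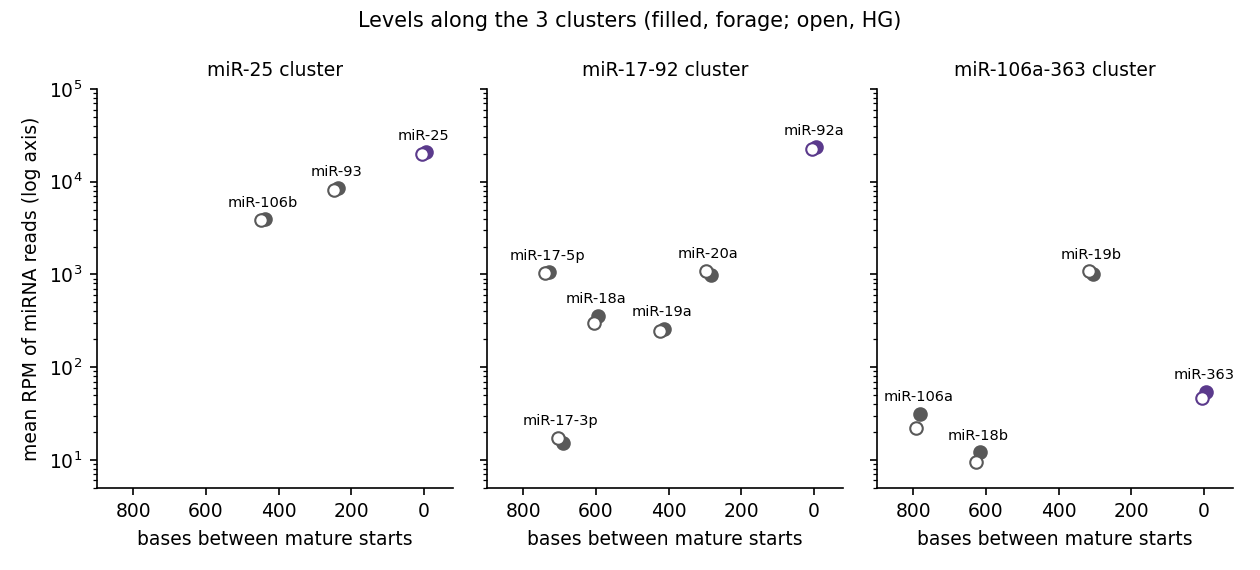
Mean RPM (log axis) of the kept entries of 3 clusters, against the number of bases between their mature start and that of the family member (purple), with forage filled and HG open. miR-25 is the highest of its cluster and miR-92a of its own, while miR-363 lies below miR-19b. miR-19b, made from both the miR-17-92 and the miR-106a-363 clusters, is listed at the X locus only and drawn there.

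The miR-106a-363 cluster on the X chromosome gave few reads of its own. miR-363 had 164 reads, miR-106a 88, miR-18b 36 and miR-20b 4, and miR-20b did not reach 10 reads in any library. miR-19b, with 3343 reads, can come from either cluster, and its reads are not evidence for this locus. Since miR-92a also has a copy here, the low counts of miR-363 and its neighbours give no direct share of miR-92a for the X locus.

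Hardly any reads were found for the opposite arms of the hairpins. Of 6 human entries for these arms, hsa-miR-25-5p had 8 reads and hsa-miR-92a-1-5p had 4 over the 8 libraries, and the other 4 were not listed. Bovine entries for these arms were not analysed here. bta-miR-367, a miRNA known to have the same seed that was not among the members, had 2 reads in each of 2 libraries and lies under the limit that a count of 0 allows.

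For each member, the 3 bovine entries of most similar profile over the 8 libraries were sought among 122 entries with at least 1000 reads, by the root-mean-square difference of centred log2 CPM after TMM scaling. For miR-25 these were miR-150, a lymphocyte miRNA (difference 0.016), miR-93 (0.032) and miR-16a (0.038). For miR-92a they were miR-103 (0.022), miR-186 (0.029) and let-7f (0.032). The median difference over the candidates was 0.12 for both members, whose own profiles were nearly flat (0.039 and 0.016 from their mean). For miR-32 the nearest entries were miR-199a-3p, miR-142-3p and miR-484, with differences of 0.14 to 0.16 that were closer to the median of 0.24. miR-92b lay nearest to miR-2285bc, miR-124a and miR-124b (0.099 to 0.11), of which miR-124a and miR-124b have the same reads in every library, and miR-363 to miR-107, miR-9-5p and miR-2285bf (0.13 to 0.15). Without HG replicate 2 only 3 of these 15 entries remained among the nearest 3, namely miR-150, miR-484 and miR-2285bf, and miR-93 moved from place 2 to place 13 for miR-25.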

How the data were processed

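Small RNA of 8 rumen fluid libraries was analysed, with cows paired by the replicate number of the labels. The deviations of same-numbered libraries from their diet mean correlated by -0.086 to 0.049, so the pairing rests on the labels alone. The authors demultiplexed the reads with bcl2fastq 2.20, trimmed adapters with Skewer, discarded short and low-quality reads, and assigned the rest with sRNAbench (genome mode, Bowtie) to bovine and human miRBase entries on UMD3.1. For each library the authors deposited a read count per mature entry, in which a read counts in full at each entry, and an expected count, in which it is divided. The deposited RPM of all reads and a deposited score, RPM of miRNA reads, served to recover the read totals. The authors' normalized signal was, for 377 of 377 entries, the rounded expected count over the DESeq2 size factor (within 0.1%) and was not used further. Numbers of distinct read sequences are as deposited.

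The count tests ran in R 4.3.3 with edgeR 4.0.16 (TMM, quasi-likelihood, cow and diet in the model, a minimum of 10 reads in 1 or more libraries, Benjamini-Hochberg adjustment over all). Here edgeR took the place of the DESeq2 test of the study. DESeq2 1.42.0 was an alternative, and the procedure was tested on simulated data. P-values of the diet and cow tests set a difference against the residual spread between these libraries. Those of the chi-square test set it against counting error only. Levels, intervals and likeness were computed in Python 3.11.15 with pandas 2.3.3 and scipy 1.17.1. The text names the 5 members, listed mates, arms and human entries with at least 1000 reads (rarer ones by reads), the 3 entries nearest to each member, and marker lists. miR-375, miR-2285bf (for forage replicate 2) and miR-367 were added to these once values were known. The members and lists were chosen with earlier results of these data known. No mature sequences were used here, so the shared seed was not checked.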

Additional observations from a re-analysis of the deposited data

Results flagged for a closer look

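In 34 groups of 4 libraries (members, family share, the ratio of miR-92a to miR-25, cluster mates with at least 1000 reads and marker sums, each per diet), 5 held a library far from the other 3, with a gap to the nearest that exceeded Dixon's 95% critical value for the share of the whole range. Chance gives this in about 1 of 20 independent groups. These groups share libraries, and RPM values within a library depend on each other, so the 5 are not separate events. The only member among them was miR-32, at 1155 RPM in forage replicate 2 beside 779 to 808 in the other forage libraries (gap 0.924 of the range). The other 4 were all in HG replicate 2. There miR-93 had 6806 RPM, beside 8439 to 8591 in the other HG libraries. Erythrocyte markers summed to 149756 RPM (198457 to 201656), leukocyte markers to 18655 (22587 to 23047) and epithelial markers to 31200 (22054 to 22804). miR-25 and miR-92a were low in the same library with gaps of 0.717 and 0.744, which did not reach the limit.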

How the results depend on the processing

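No member passed the diet or the cow test under any of 12 alternatives for the diet and 10 for the cow. These were DESeq2 and its size factors, no filter, 10 reads in every library, divided reads, 1 entry per read profile, leaving out each cow and, for the diet only, no replicate block with and without HG replicate 2. Without each replicate in turn, 0 to 2 entries were called for the diet and 0 to 2 for the cow. The 2 calls came without replicate 2, and both are other entries, bta-miR-2285ak-5p and bta-miR-2285bh, which have the same 88 reads, listed in 1 library. With no replicate block 0 entries were called. The diet change turned in sign for miR-32 without replicate 2 (0.0072, range -0.070 to 0.0072 over the cows left out), and for miR-92b without replicate 2 (0.0077, range -0.23 to 0.0077) and with no replicate block and without HG replicate 2 (0.021). For miR-32 it was -0.05 with no replicate block, and -0.17 with no replicate block and without HG replicate 2. The diet change kept its sign in the other alternatives, with ranges over the cows left out of -0.06 to -0.0027 (miR-25), -0.03 to -0.0055 (miR-92a) and -0.34 to -0.04 (miR-363). The stated order of the 5 members held in 100% of libraries, but in 0% with divided reads, by construction of that count. Of the 15 nearest entries, 3 remained without HG replicate 2. The family share of HG libraries without HG replicate 2 (4.51%) and the forage mean of miR-32 without forage replicate 2 (793 RPM) were added after seeing the data. Depth limits miR-92b and miR-363, at 12 to 78 reads per library.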
